A study of Mus musculus with 2 samples.

Results

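The 27 genes described here code for the enzymes of cholesterol synthesis, the SREBP2 pathway that controls them and a pair of sterol handling proteins. They were taken by symbol from the 31053 features counted in each library, and each symbol matched 1 feature. By role they were 8 enzymes of the mevalonate branch, 11 enzymes of the sterol branch, 6 genes of SREBP control and 2 genes of sterol handling. Droplet RNA sequencing of cells from liver tumour tissue gave 1 library per group. The inhibitor library came from C57BL/6 mice aged 17 months that had been on the diet named CD-HFD for 15 months and received an inhibitor of FABP5, a cytosolic carrier of fatty acids, starting at month 13. The control library came from C57BL/6 mice of the same age on the same diet and is labelled only as control. The sources used here do not give how many mice stood behind each library, whether their cells were pooled, or what the control mice received.

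Cells make cholesterol from acetyl-CoA. The mevalonate branch builds isoprenoid units, which also feed protein prenylation, and the sterol branch turns squalene into cholesterol. When sterols in the endoplasmic reticulum are low, SCAP carries the transcription factor SREBP2 to the Golgi, where a pair of proteases release its active part, which turns on most of the enzyme genes. When sterols are plentiful, the INSIG proteins hold SCAP back. The liver is a main site of this synthesis in the body.

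The inhibitor library held 10649 barcodes with 68074929 unique molecular identifiers (UMIs, each standing for 1 captured mRNA) and the control library 9493 barcodes with 53378693 UMIs. After limits on genes, UMIs and mitochondrial share and removal of doublets, 8753 inhibitor and 6461 control cells were left, with a median of 6286 and 3955 UMIs. More than 25% mitochondrial UMIs were found in 885 inhibitor barcodes and in 2204 control barcodes. The libraries shared 29 barcodes, of which 18 were kept in both, 6 of them in the same class. Cells were clustered without the 27 genes, and clusters were called "-like" from marker genes. Most of the cells, labelled as liver cells, carried leukocyte markers. Hepatocyte-like cells were 132 of the inhibitor and 133 of the control cells, and they fell into separate clusters, cluster 20 with 129 inhibitor and 2 control cells and cluster 19 with 3 inhibitor and 131 control cells. The monocyte-like class was also unequal, since cluster 0 held 2962 inhibitor and 79 control cells.

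Comparisons were made in 10 classes, those that reached 50 cells in both libraries. Levels are UMIs summed over the cells of a class, per 1000000 UMIs of that class (CPM), and every ratio is inhibitor over control. Since each group had a single library, no test was possible, and a gene counts as higher or lower when it differed by at least 1.5-fold with at least 20 UMIs over both libraries. The 95% intervals are exact Poisson for levels, exact conditional binomial for ratios and exact binomial for shares, and they cover counting error only, not differences between mice. In such sums a difference in every cell and a difference in the mix of cells within a class cannot be told apart. The counting tags the ends of transcripts, so levels of different genes are not ordered against each other.

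The summed level of the 19 enzymes separated the classes more than the libraries did. In the inhibitor library it was 938 CPM in hepatocyte-like cells, 852 CPM in plasmacytoid dendritic (pDC)-like cells and 680 CPM in conventional dendritic cell 2 (cDC2)-like cells. The other compared classes of that library lay between 131 CPM in neutrophil-like and 356 CPM in macrophage-like cells. In the control library it was 1258 CPM in hepatocyte-like and 691 CPM in pDC-like cells. The cDC2-like cells of the control library, at 315 CPM, stood above T-like cells at 273 CPM and macrophage-like cells at 272 CPM. Within the control library the intervals of the T-like, macrophage-like, monocyte-like, B-like and NK-like or ILC1-like levels overlapped, so their order is not resolved. Over all kept cells the sum was 326 CPM in the inhibitor and 313 CPM in the control library.

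**Figure D1:**
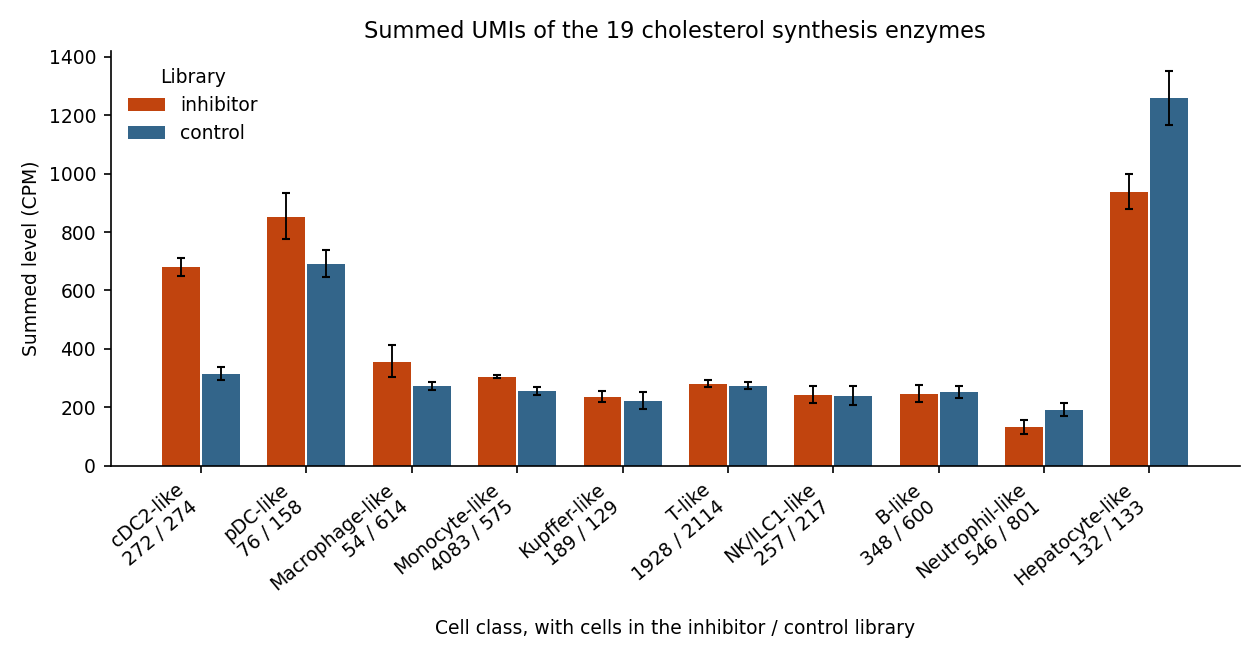
Summed level of the 19 cholesterol synthesis enzymes in CPM (vertical axis) in the 10 compared cell classes (horizontal axis, with the number of inhibitor / control cells), orange for the inhibitor and blue for the control library, with exact Poisson 95% intervals as error bars. The bars of cDC2-like cells, 680 CPM in the inhibitor and 315 CPM in the control library, lie farthest apart as a ratio, while those of T-like, B-like and NK-like or ILC1-like cells nearly coincide.

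The widest difference was in cDC2-like cells, dendritic cells that present antigen mainly to helper T cells. Their summed enzyme level was 680 CPM (649 to 712) in the inhibitor library and 315 CPM (294 to 337) in the control library, a ratio of 2.16, or 1.11 on the log2 scale (0.99 to 1.23). The mevalonate branch, at 347 and 163 CPM, and the sterol branch, at 333 and 151 CPM, differed by like amounts, with log2 ratios of 1.09 (0.92 to 1.26) and 1.14 (0.97 to 1.31). Of the 27 genes, 25 passed 20 UMIs, 14 of these were higher and 2 lower, where 9.96% of the 8919 genes that passed in this class were higher and 10.5% lower. The median log2 ratio was 0.68 over the 25 genes, 1.23 over the 17 enzymes that passed and 0.06 over all passing genes. The class held 272 inhibitor and 274 control cells, with a median of 9573 and 9987 UMIs per cell. Without cluster 32, a small cluster of this class, 9 members were higher and 2 lower, and the summed log2 ratio was 0.75 (0.61 to 0.89). The share over all genes was not computed without this cluster, so these 2 counts have no background beside them. Mvd, Acat2, Dhcr7, Insig1 and Stard4 then missed 1.5-fold, Hsd17b7 had too few UMIs, and Nsdhl passed at 0.81.

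The early steps of the mevalonate branch were uneven. Hmgcs1, whose product condenses acetyl groups into the precursor of mevalonate, stood at 52.2 CPM (138 UMIs) in inhibitor and 16.2 CPM (43 UMIs) in control cDC2-like cells. Hmgcs1 was 3.22-fold higher, with a log2 ratio of 1.69 (1.18 to 2.21), and of 1.36 (0.78 to 1.96) without cluster 32. Acat2, the cytosolic thiolase that comes before it, stood at 8.71 and 3.78 CPM from 23 and 10 UMIs, 2.30-fold higher, with an interval that reached down to 0.08 on the log2 scale, and a log2 ratio of 0.40 (-1.15 to 1.97) without cluster 32. The kinases that follow did not pass 1.5-fold. Mvk, mevalonate kinase, stood at 9.46 and 7.93 CPM, a log2 ratio of 0.25 (-0.64 to 1.16), and Pmvk, phosphomevalonate kinase, at 57.5 and 52.9 CPM, a log2 ratio of 0.12 (-0.22 to 0.46). For Pmvk, with 152 and 140 UMIs, that interval stays below the 1.5-fold threshold.

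The genes of the isoprenoid units differed unequally. Mvd, which makes the basic isoprenoid unit, stood at 32.2 CPM in inhibitor and 20.8 CPM in control cells, 1.55-fold higher. Its log2 ratio of 0.63 was 0.040 without cluster 32, so that for Mvd this cluster decided the call. Idi1, the isomerase of that unit, stood at 42.0 and 13.6 CPM, 3.09-fold higher. Fdps, farnesyl diphosphate synthase, had the highest count of the 27 genes in the inhibitor cells of this class, 310 UMIs (117 CPM), against 71 UMIs (26.8 CPM) in the control cells. Its log2 ratio was 2.13 (1.75 to 2.52). Without cluster 32 the log2 ratios were 1.14 (0.51 to 1.79) for Idi1 and 1.59 (1.10 to 2.10) for Fdps. Ggps1, which draws farnesyl units toward protein prenylation and away from sterols, stood at 27.3 and 21.2 CPM, a log2 ratio of 0.37 (-0.16 to 0.90), and was not counted as higher.

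In the sterol branch the opening enzymes Sqle and Fdft1 showed the largest ratios of the 25 genes. Sqle, squalene epoxidase, stood at 27.6 CPM (73 UMIs) in inhibitor and 4.91 CPM (13 UMIs) in control cells, 5.63-fold higher with a log2 ratio of 2.49 (1.63 to 3.47). Fdft1, squalene synthase, which commits farnesyl units to sterols, stood at 18.9 CPM (50 UMIs) and 4.16 CPM (11 UMIs), 4.55-fold higher with a log2 ratio of 2.19 (1.23 to 3.28). Lss, which closes the ring system to lanosterol, was counted with 8 UMIs in each library and was too sparse to compare. Among the genes of the later steps, Cyp51, lanosterol demethylase, stood at 54.1 and 17.4 CPM, 3.11-fold higher. Msmo1, the methylsterol oxidase, stood at 62.8 CPM and 19.6 CPM, 3.20-fold higher. Both had intervals that began above 1 on the log2 scale, at 1.15 for Cyp51 and 1.22 for Msmo1. Without cluster 32 all 4 of these genes had smaller log2 ratios. They were 1.62 (0.66 to 2.66) for Sqle and 1.61 (0.51 to 2.82) for Fdft1. For Cyp51 the value was 1.37 (0.81 to 1.95) and for Msmo1 1.23 (0.70 to 1.77).

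Other enzymes of the later steps were less certain. Hsd17b7, which acts in the same demethylation as Msmo1, was higher on 17 inhibitor and 4 control UMIs, with a log2 ratio of 2.09 (0.47 to 4.12). Nsdhl, its dehydrogenase partner, stood at 10.6 and 7.18 CPM and just missed 1.5-fold, with a log2 ratio of 0.56 (-0.33 to 1.48). Tm7sf2, a sterol reductase, had 12 and 4 UMIs and did not pass the filter. Closer to the end product, Sc5d, a sterol desaturase, stood at 28.4 and 12.1 CPM, 2.35-fold higher, and Dhcr7, a reductase of the final steps, at 10.2 and 5.29 CPM, 1.93-fold higher with a lower bound of -0.03 on the log2 scale. Without cluster 32 the log2 ratio of Dhcr7 was 0.47 (-0.81 to 1.77) and that of Sc5d 1.23 (0.52 to 1.97). Ebp, the sterol isomerase, had the most UMIs of the branch in both libraries and stood at 107 CPM (282 UMIs) and 74.8 CPM (198 UMIs). Its log2 ratio of 0.51 (0.25 to 0.78) lay above 0 and under the 1.5-fold threshold.

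Promoter sequences of genes that moved together in cDC2-like cells are shown for Msmo1, which was higher in most classes, for Hmgcs1, an early gene of the mevalonate branch, and for Idi1. Each runs 5′ to 3′ from 250 bases before to 50 bases after the start of the gene, from RefSeq on build GRCm38.p6. Msmo1 lies at chr8:64733529-64733828 on the minus strand, Hmgcs1 at chr13:119690101-119690400 on the plus strand and Idi1 at chr13:8885356-8885655 on the plus strand. Capitals mark CCAAT or its reverse ATTGG, the letters bound by NF-Y, a factor known to act beside SREBP2, and TCACNCCAC, a core of the sterol regulatory element, on either strand.
Msmo1: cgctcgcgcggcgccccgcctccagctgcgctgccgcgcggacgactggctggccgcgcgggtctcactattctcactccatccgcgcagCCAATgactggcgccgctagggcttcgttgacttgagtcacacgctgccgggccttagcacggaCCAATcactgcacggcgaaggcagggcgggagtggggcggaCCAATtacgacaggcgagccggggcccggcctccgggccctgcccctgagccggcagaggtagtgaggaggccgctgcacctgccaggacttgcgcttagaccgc
Hmgcs1: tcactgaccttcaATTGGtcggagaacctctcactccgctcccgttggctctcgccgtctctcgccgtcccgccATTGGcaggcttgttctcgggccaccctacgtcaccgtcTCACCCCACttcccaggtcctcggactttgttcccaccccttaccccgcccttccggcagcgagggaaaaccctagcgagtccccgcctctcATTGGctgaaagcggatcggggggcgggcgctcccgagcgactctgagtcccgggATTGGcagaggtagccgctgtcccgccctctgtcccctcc
Idi1: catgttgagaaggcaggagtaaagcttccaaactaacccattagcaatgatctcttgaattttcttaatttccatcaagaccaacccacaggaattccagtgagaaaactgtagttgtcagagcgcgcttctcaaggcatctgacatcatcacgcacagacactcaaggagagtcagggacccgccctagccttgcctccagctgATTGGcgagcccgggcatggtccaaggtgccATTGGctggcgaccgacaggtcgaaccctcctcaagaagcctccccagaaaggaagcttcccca

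Msmo1 held CCAAT 3 times, Hmgcs1 4 times and Idi1 2 times in these windows. Cyp51 and Sc5d, whose windows are not shown, held it 1 time each. No promoter sequence was available for Fdps, Sqle, Fdft1 and Stard4. Of the 23 members in the promoter table, 19 (82.6%) held CCAAT on either strand, against 41.1% of the 27025 genes in the table, where a gene counted when any of its promoters did. GGGCGG, the letters of an Sp1 box, were in 20 of the 23, against 38.2% of genes. TCACNCCAC was in Hmgcs1 alone among the members and in 1.44% of genes. The related letters CACCCCAC were in Hmgcs1, where they overlap the match of TCACNCCAC, and in Acat2, against 3.3% of genes. The 27025 genes were not limited to those detected in these cells, and shares among detected genes were not computed. A match is a description of letters in a window, and no match says only that the letters are not there.

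**Figure D2:**
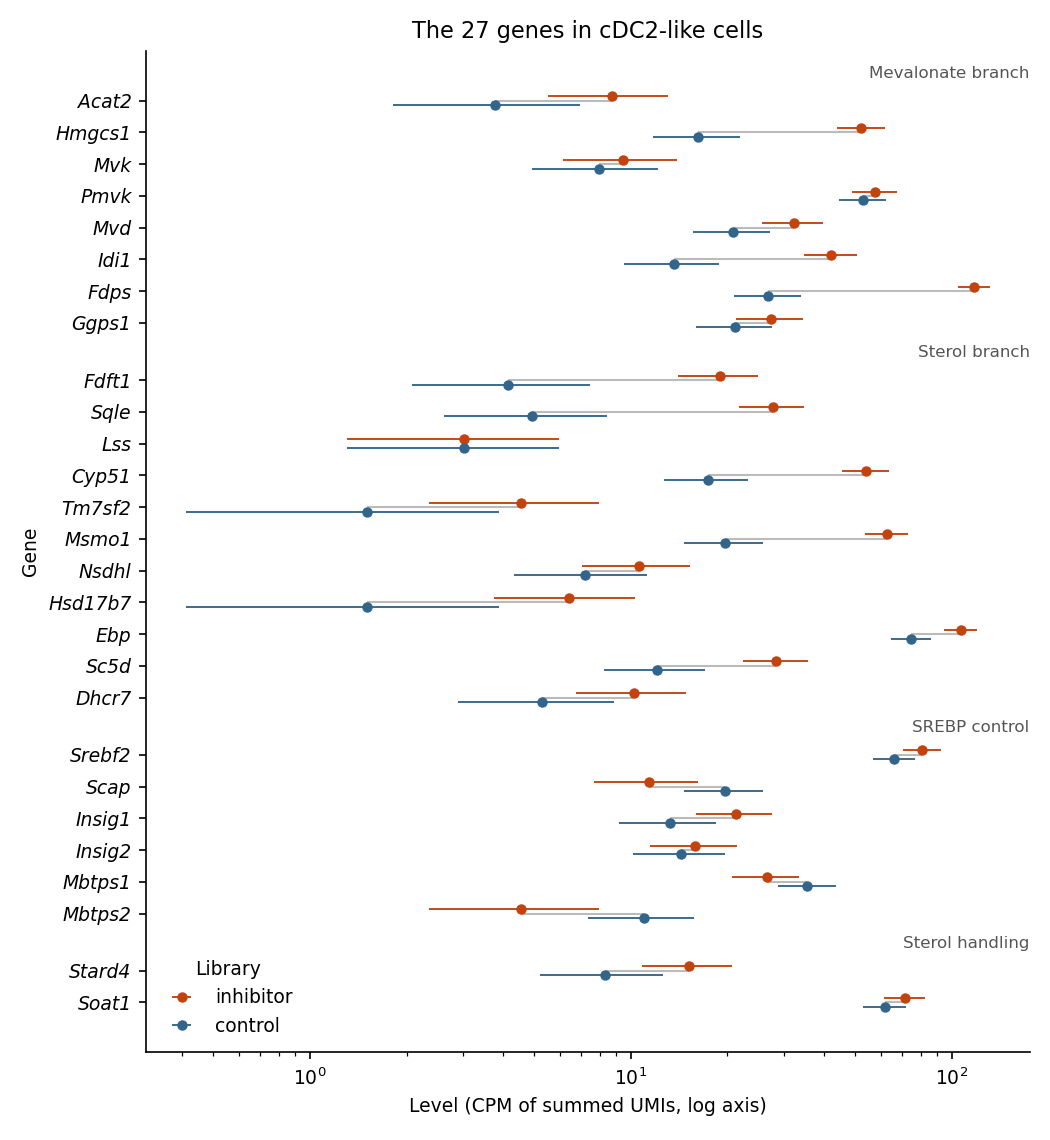
Level of the 27 genes in cDC2-like cells in CPM (horizontal log axis), ordered by role from the mevalonate branch at the top to sterol handling at the bottom, orange for the inhibitor and blue for the control library, with exact Poisson 95% intervals as bars. Sqle (27.6 and 4.91 CPM), Fdft1 and Fdps show the widest gaps, while Pmvk (57.5 and 52.9 CPM) and the genes of SREBP control except Insig1 lie close together or have the control library higher.

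Among the 6 genes that control the pathway, Insig1 was higher, Scap and Mbtps2 were lower, and 3 passed neither side, where the median log2 ratio was -0.14. Insig1, a retention protein that is itself a target of SREBP2, stood at 21.2 CPM in inhibitor and 13.2 CPM in control cDC2-like cells, a log2 ratio of 0.68 (0.05 to 1.33), which was 0.31 (-0.41 to 1.03) without cluster 32. Insig2, its relative, stood at 15.9 and 14.4 CPM, and Srebf2, which codes for SREBP2 itself, at 81.0 and 66.1 CPM with a log2 ratio of 0.29. Scap, the escort of SREBP2, stood at 11.4 CPM (30 UMIs) and 19.6 CPM (52 UMIs), 1.73-fold lower. Mbtps2, a protease that releases the active factor, stood at 4.54 CPM (12 UMIs) and 11.0 CPM (29 UMIs), 2.41-fold lower. Mbtps1, the other protease, stood at 26.5 and 35.5 CPM, a log2 ratio of -0.42 (-0.89 to 0.04). Mbtps2 shares its strand with the overlapping gene Yy2, Srebf2 with Mir33 and Gm49502, Tm7sf2 with Vps51 and Fdps with Gm43738 and Gm22935, so the counting could split or lose reads of these genes. Of the sterol handling genes, Stard4, a cytosolic sterol carrier and SREBP2 target, stood at 15.1 and 8.31 CPM, 1.82-fold higher, with a log2 ratio of 0.46 (-0.54 to 1.49) without cluster 32, and Soat1, which esterifies cholesterol for storage, at 71.5 and 62.0 CPM, a log2 ratio of 0.21 (-0.10 to 0.52).

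The cDC2-like class was made of 4 clusters of unequal makeup. Cluster 8, led by Cd209a and Mgl2, held 75 inhibitor and 157 control cells, cluster 30, led by Cd209a and Clec10a, 138 and 69, cluster 32 held 59 and 23, and cluster 33, led by Ccl17, held 25 control cells only. The summed enzymes were higher in each cluster that held both libraries except in cluster 30, where the ratio was just under 1.5-fold. They stood at 474 and 283 CPM in cluster 8, a log2 ratio of 0.74 (0.53 to 0.95), at 514 and 345 CPM in cluster 30, a log2 ratio of 0.57 (0.35 to 0.80), and at 1345 and 516 CPM in cluster 32, a log2 ratio of 1.38 (1.09 to 1.68). In cluster 8, 8 of 17 passing members were higher and 2 lower, where 8.73% of genes were higher and 12.7% lower. In cluster 30 it was 9 higher and 2 lower of 20, where 13.2% of genes were higher and 12.5% lower. In cluster 32 it was 14 higher and 0 lower of 17, where 19% of genes were higher and 11.9% lower.

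Cluster 32 stood apart from the other cDC2-like cells in its pDC markers. Beside Cd209a and Cd7 its leading genes included Tcf4, Bcl11a and Cd209d. Its summed pDC markers were at 2333 CPM in inhibitor and 2830 CPM in control cells. They were at 326 and 381 CPM in cluster 8 and at 367 and 452 CPM in cluster 30. The cDC2 markers of cluster 32 were at 1773 and 1629 CPM. Cluster 30, named on 3 cDC2 markers, also carried markers of other types. Its cDC2 markers were at 951 and 986 CPM, those of conventional dendritic cell 1 at 1193 and 809 CPM and those of classical monocytes at 3397 and 3048 CPM. Fdps, although left out of the clustering, was among the 10 leading genes of cluster 32. In this cluster Fdps stood at 326 CPM (184 UMIs) in inhibitor and 103 CPM (22 UMIs) in control cells, and Idi1 at 86.9 and 14.1 CPM. Sqle had 39 UMIs in inhibitor cells and 0 in control cells, where a count of 0 allows up to 3 UMIs, so it was at least 4.91-fold higher. Srebf2, at 108 and 37.6 CPM, was also higher in this cluster, with a log2 ratio of 1.53 (0.46 to 2.80).

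The enzymes were spread unevenly over single cells. Per 10000 UMIs of a cell, the median of summed enzyme UMIs was 3.90 in inhibitor and 2.46 in control cDC2-like cells, and the 90th percentile was 17.8 and 5.60. At 10 or more per 10000, a line drawn after the values were seen, there were 46 of 272 inhibitor cells (16.9%) and 10 of 274 control cells (3.65%), and 23 and 10 cells lay between 8 and 12. Those cells held 54.5% of the enzyme UMIs of the inhibitor and 15.6% of those of the control cells. In cluster 32 they were 24 of 59 inhibitor and 2 of 23 control cells, in cluster 8 they were 9 of 75 and 3 of 157, and in cluster 30 they were 13 of 138 and 5 of 69. After each cell was thinned to 1000 UMIs, 41.2% (35.3 to 47.3) of inhibitor and 22.8% (17.9 to 28.2) of control cDC2-like cells kept a UMI of any enzyme, and 91.9% and 83.6% had one before thinning. The same thinned share in neutrophil-like cells, the class with the lowest enzyme level, was 10.7% in the inhibitor and 18.1% in the control library. That is a level of comparison only, since these genes are used by nearly every cell.

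**Figure D3:**
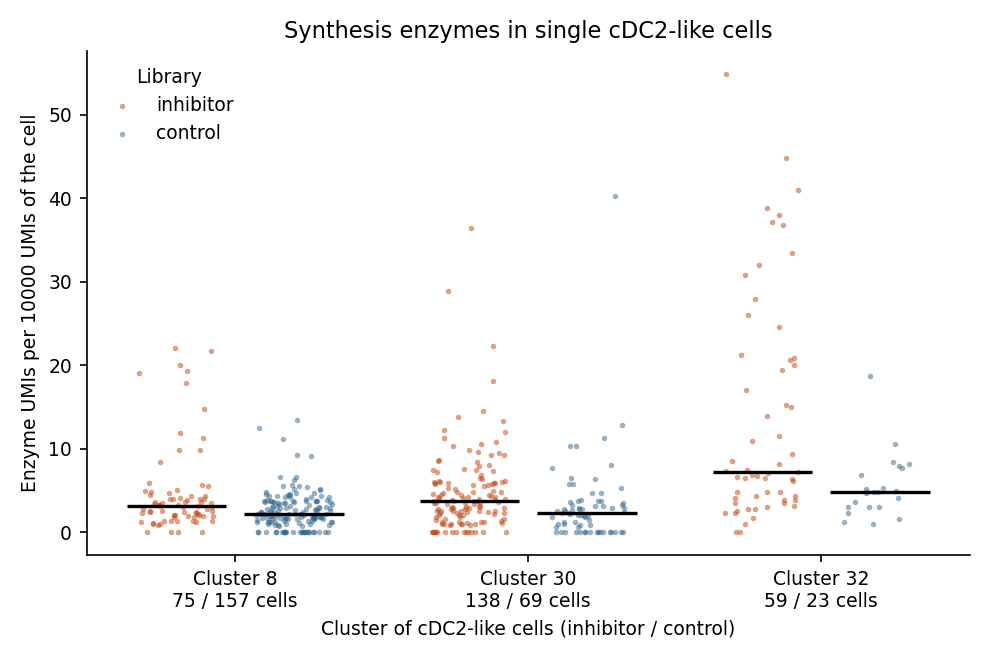
Summed enzyme UMIs per 10000 UMIs (vertical axis) in single cDC2-like cells of clusters 8, 30 and 32 (horizontal axis, with the number of inhibitor / control cells), orange for the inhibitor and blue for the control library, black lines at the medians. Most cells of both libraries lie under 10, and 24 of the inhibitor but 2 of the control cells of cluster 32 reach 10.

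Markers of other cell types also moved in this class. Summed hepatocyte markers were at 23.1 CPM in inhibitor and 841 CPM in control cDC2-like cells, with 0 and 1 of 8 at zero. If transcripts of secreted hepatocyte proteins in the class came with enzymes in the ratio seen in hepatocyte-like cells, they would carry 1.33 CPM of enzymes in the inhibitor and 17.5 CPM in the control cells, against sums of 680 and 315 CPM. Markers of conventional dendritic cell 1 were at 864 and 494 CPM and those of pDC at 775 and 594 CPM, so both sums had the larger value in the inhibitor cells. Within clusters the pDC sum was instead smaller in the inhibitor cells. It was 326 and 381 CPM in cluster 8, 367 and 452 CPM in cluster 30 and 2333 and 2830 CPM in cluster 32. The sum of conventional dendritic cell 1 markers stayed larger in the inhibitor cells of cluster 8, at 419 and 245 CPM, and of cluster 30, at 1193 and 809 CPM. In cluster 32 it was smaller, at 656 and 732 CPM. Over the whole class, summed macrophage markers were at 149 and 486 CPM, classical monocyte markers at 2942 and 2057 CPM, mature dendritic cell markers at 79.9 and 252 CPM and the cDC2 markers themselves at 1268 and 1537 CPM. Cycling genes were at 57.9 and 80.1 CPM. The part of these other markers in the enzyme levels was not tested. Mature dendritic cell-like cells, 11 in the inhibitor and 47 in the control library and too few to compare, had summed enzymes at 567 and 1046 CPM, and conventional dendritic cell 1-like cells, 35 and 82, had them at 525 and 347 CPM.

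In the other myeloid classes the sums of the libraries lay closer together. In pDC-like cells, which make type I interferon, the summed enzymes were at 852 CPM in the inhibitor and 691 CPM in the control library, a log2 ratio of 0.30 (0.14 to 0.47). Of 22 passing members 3 were higher and 2 lower, where 9.34% of genes were higher and 9.27% lower. Idi1 stood at 76.5 and 35.3 CPM, 2.17-fold higher, Msmo1 at 101 and 64.9 CPM, 1.56-fold higher, and Cyp51, named after its values were seen, at 44.5 and 25.5 CPM. Fdps, at 123 and 85.4 CPM, had a log2 ratio of 0.52 (0.06 to 0.98). Nsdhl and Soat1 were the lower ones, and the intervals of Cyp51, Nsdhl and Soat1 reached 0. Msmo1 missed 1.5-fold in some settings, with a lowest log2 ratio of 0.49. Set beside cDC2-like cells of their own library, the pDC-like sums were 852 CPM against 680 CPM in the inhibitor library and 691 CPM against 315 CPM in the control library.

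In macrophage-like cells, of which the inhibitor library held 54 and the control library 614, the sums were 356 and 272 CPM, a log2 ratio of 0.39 (0.15 to 0.61), which was 0.093 (-0.09 to 0.27) at a resolution of 0.5. Of 23 passing members 7 were higher and 4 lower, where 14.9% of genes were higher and 16.3% lower. Mvd stood at 25 CPM from 12 UMIs and 10.7 CPM from 57 UMIs, 2.32-fold higher, and Msmo1 at 31.2 and 15.6 CPM, 1.99-fold higher. Both missed 1.5-fold in some settings, with lowest log2 ratios of 0.25 for Mvd and 0.43 for Msmo1. In Kupffer-like cells, the resident macrophages of the liver, the sums were 235 and 220 CPM, with 5 of 20 passing members higher and 1 lower, where 12.4% of genes were higher and 20.6% lower. Free RNA was estimated without empty droplets. Its profile was the sum over all deposited barcodes of a library, scaled by genes of secreted hepatocyte proteins. That put it at 39.6% of the UMIs of inhibitor and 11.6% of those of control Kupffer-like cells. Scaled to hepatocyte-like cells instead, the same genes gave 1.27% and 2.07%, so the amount of free RNA is not settled. With the first estimate subtracted the summed log2 ratio was -0.25 (-0.52 to 0.02). Without subtraction, Srebf2 in Kupffer-like cells stood at 40.6 and 20.4 CPM, 1.99-fold higher, Msmo1 at 27 and 9.70 CPM, 2.79-fold higher, and Mbtps1 at 17.0 and 37.8 CPM, 2.22-fold lower. Pmvk, Idi1 and Cyp51 were the other higher members, with intervals that reached 0. Soat1 stood at 161 and 204 CPM in these cells, a log2 ratio of -0.34 (-0.58 to -0.10), which was 0.036 as a mean over cells. The median depth of Kupffer-like cells was 14269 UMIs in the inhibitor and 5744 UMIs in the control library, and the part of that gap in these ratios was not tested.

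In monocyte-like cells the branches are given apart, without a test of their contrast. The sterol branch was at 202 CPM in the inhibitor and 151 CPM in the control library, a log2 ratio of 0.42 (0.31 to 0.54), and the mevalonate branch at 102 and 104 CPM, a log2 ratio of -0.03 (-0.17 to 0.11). Msmo1, 1 of the 11 genes of the sterol branch, alone made up 47.0 and 13.9 CPM of its sums. The sterol branch without Msmo1 was not summed, so the gap is not shown to be shared by the branch. In cluster 3 the sterol branch was at 218 and 155 CPM, a log2 ratio of 0.49 (0.32 to 0.67), with 5 of its 8 passing genes higher and 1 lower. Msmo1 made up 62.9 and 14.1 CPM of these sums. The mevalonate branch was at 117 and 103 CPM, with 3 of its 8 genes higher and 1 lower. Of 24 passing members in cluster 3, 10 were higher and 3 lower. Of the 9197 genes that passed in cluster 3, 922 were higher and 1350 lower. In cluster 0, with 79 control cells, the sterol branch was at 203 and 205 CPM. There 6 of 25 passing members were higher and 3 lower, where 1393 of 10426 genes were higher and 2332 lower. In the whole monocyte-like class all 27 members passed, 5 were higher and 2 lower, where 12.1% of genes were higher and 17.0% lower. Msmo1 stood at 47.0 CPM (1525 UMIs) and 13.9 CPM (61 UMIs), 3.37-fold higher with a log2 ratio of 1.75 (1.38 to 2.15). Cyp51 stood at 12.9 and 7.31 CPM, 1.76-fold higher, and Sc5d at 9.33 and 5.25 CPM, 1.78-fold higher. In some settings these 2 missed 1.5-fold, with lowest log2 ratios of 0.52 for Cyp51 and 0.57 for Sc5d. The sparser Acat2 and Sqle were also higher and Lss and Hsd17b7 lower, named after their values were seen and with intervals that reached 0. Srebf2 (31.1 and 23.5 CPM), Soat1 (157 and 116 CPM) and Nsdhl (6.99 and 10.0 CPM) had intervals on 1 side of 0 and ratios under 1.5-fold. Since clusters 0 and 3 held most of the inhibitor cells and clusters 3 and 17 most of the control cells, the clusters are given apart. Msmo1 was at 44.6 and 14.5 CPM in cluster 0, 62.9 and 14.1 CPM in cluster 3, at a log2 ratio of 0.98 (-0.19 to 2.38) in cluster 12 and at 13.2 and 12.6 CPM in cluster 17, which was led by Cxcl9. Its log2 ratio was 1.62 in cluster 0, 2.15 in cluster 3 and 0.07 (-1.48 to 1.47) in cluster 17. Without cluster 0 Srebf2 had a log2 ratio of 0.76 (0.43 to 1.11) and passed 1.5-fold.

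Msmo1 was the member higher in the most classes. It passed 20 UMIs in all 10 and was at least 1.5-fold higher in 8, and in 6 of these the interval lay above 0. B-like cells were among the 6, with 17.6 CPM (19 UMIs) in the inhibitor and 6.84 CPM (15 UMIs) in the control library, 2.56-fold higher. In NK-like or ILC1-like cells it stood at 15.0 and 9.89 CPM and in neutrophil-like cells at 10.8 and 6.14 CPM, with intervals across 0. T-like cells, at 18 and 16.3 CPM, did not pass 1.5-fold, with a log2 ratio of 0.15 (-0.22 to 0.51). In hepatocyte-like cells the control library was the higher, with 22.1 and 35.1 CPM, a log2 ratio of -0.67 (-1.60 to 0.27). Among cells thinned to 1000 UMIs, 4.33% of inhibitor and 1.07% of control monocyte-like cells kept a Msmo1 UMI (27.2% and 9.91% before thinning), against 0.576% and 0.379% of neutrophil-like cells. After Msmo1, Cyp51 was higher in 5 classes and lower in 1, and Idi1 higher in 4 and lower in 0. How many of all genes were higher in as many classes was not counted. The classes of a library share its preparation, so they are not independent of each other.

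**Figure D4:**
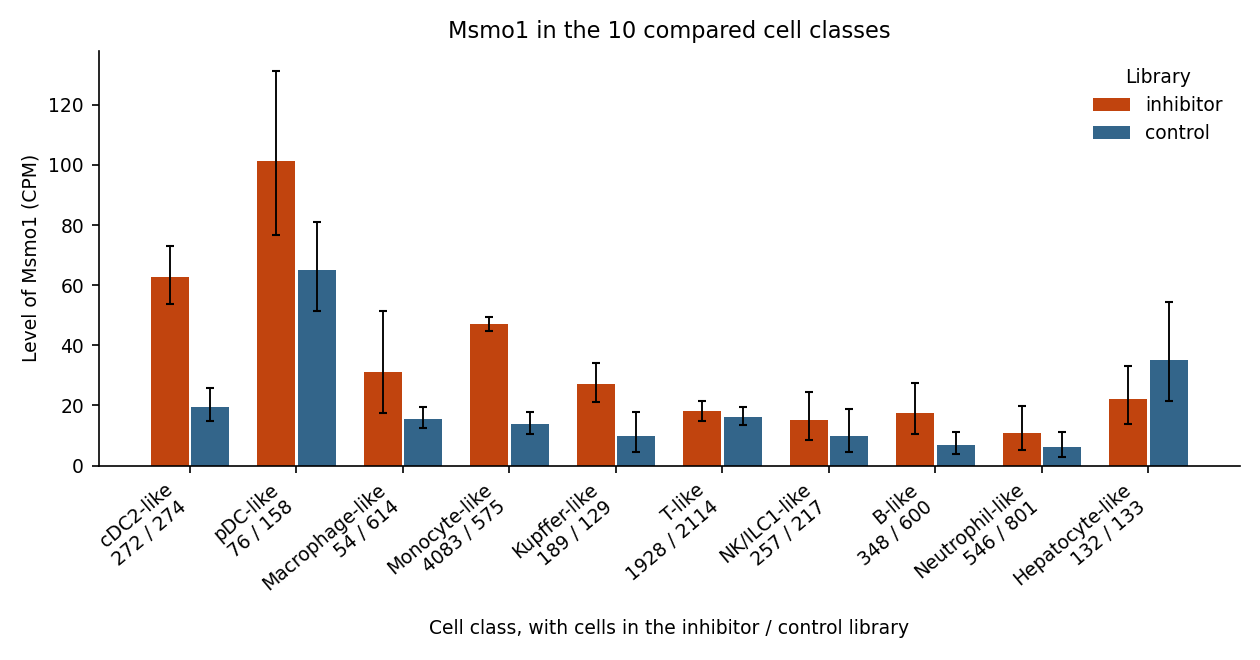
Level of Msmo1 in CPM (vertical axis) in the 10 compared cell classes (horizontal axis, with the number of inhibitor / control cells), orange for the inhibitor and blue for the control library, with exact Poisson 95% intervals. Monocyte-like cells, at 47.0 and 13.9 CPM, and cDC2-like cells, at 62.8 and 19.6 CPM, show bars far apart, while T-like cells show nearly equal bars and hepatocyte-like cells have the control bar higher.

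Lymphoid classes were nearly level. In T-like cells, with 1928 inhibitor and 2114 control cells, the sums were 281 and 273 CPM, a log2 ratio of 0.04 (-0.05 to 0.13). All 27 members passed, and 0 were higher and 0 lower, where 4.18% of genes were higher and 9.64% lower. Ebp stood at 97.7 and 78.8 CPM, Sc5d at 15.8 and 21.6 CPM and Dhcr7 at 9.83 and 14.4 CPM, all with intervals on 1 side of 0 and ratios under 1.5-fold. Without Ebp the summed log2 ratio was -0.083 (-0.19 to 0.03). Cluster 6, left unnamed although it held all 9 T markers, had sums of 218 and 203 CPM. In B-like cells the sums were 245 and 251 CPM, with 1 of 21 passing members (Msmo1) higher and 2 (Acat2 and Dhcr7) lower, where 6.34% of genes were higher and 9.06% lower. The intervals of Acat2 and Dhcr7 reached 0. In NK-like or ILC1-like cells the sums were 241 and 237 CPM, with 2 of 13 (Msmo1 and Insig2) higher and 5 (Fdps, Srebf2, Mbtps1, Mbtps2 and Stard4) lower, where 7.32% of genes were higher and 11.0% lower. In this last class 0 of 13 members had an interval clear of 0.

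Neutrophil-like and hepatocyte-like cells had lower sums in the inhibitor library. In neutrophil-like cells, which carry few UMIs, the sums were 131 CPM (121 UMIs) in the inhibitor and 192 CPM (312 UMIs) in the control library, a log2 ratio of -0.55 (-0.87 to -0.24). Only 8 members passed, 1 higher and 4 lower, where 5.47% of genes were higher and 25.2% lower and the median of all passing genes was -0.18. Ebp stood at 27 and 52.2 CPM, Ggps1 at 15.1 and 28.9 CPM, Mbtps1 at 5.41 and 16.0 CPM and Soat1 at 55.1 and 81.7 CPM. Pmvk was lower and Msmo1 higher, on fewer UMIs and with intervals that reached 0. With no doublets removed the summed log2 ratio was -0.027 (-0.25 to 0.19), that of Ebp -0.078 and that of Mbtps1 -0.45. Hepatocyte RNA, reckoned as for cDC2-like cells, would carry 7.85 CPM of the enzymes in the inhibitor and 45.6 CPM in the control library.

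In hepatocyte-like cells the sums were 938 CPM in the inhibitor and 1258 CPM in the control library, a log2 ratio of -0.42 (-0.56 to -0.28). The mevalonate branch was at 719 and 833 CPM and the sterol branch at 219 and 425 CPM, with log2 ratios of -0.21 (-0.38 to -0.04) and -0.96 (-1.22 to -0.69). Of 17 passing members 1 was higher and 8 lower, where 36.9% of genes were higher and 15.8% lower. The median log2 ratio of the members was -0.56 and that of all passing genes 0.30. Cyp51 stood at 5.76 CPM from 6 UMIs and 36.9 CPM from 21 UMIs, 6.40-fold lower, Sc5d at 20.2 and 54.5 CPM, Ebp at 59.5 and 121 CPM and Tm7sf2 at 7.68 and 21.1 CPM. The INSIG genes lay on opposite sides. Insig1 stood at 22.1 and 52.7 CPM, 2.39-fold lower, and Insig2, the form abundant in liver, at 255 CPM (266 UMIs) and 70.3 CPM (40 UMIs), 3.64-fold higher with a log2 ratio of 1.86 (1.38 to 2.38). Idi1 was at 110 and 163 CPM, a log2 ratio of -0.56. The libraries' hepatocyte-like cells came from separate clusters with median depths of 3213 and 1705 UMIs. Cluster 20 was named on 3 and cluster 19 on 7 of 8 hepatocyte markers, and of 12 genes of secreted hepatocyte proteins 8 were lower and 1 higher, with a median log2 ratio of -2.62. The part of this in the enzyme ratios was not tested. The sum turned to 0.59 with no mitochondrial limit, to 0.45 with the members among the clustering genes, to 0.29 with the libraries clustered separately, to 0.10 with no doublets removed and to 0.083 at a resolution of 0.5. These settings set its direction, while Insig2 stayed between 1.66 and 2.70 and Cyp51 between -3.10 and -1.80 in the settings that gave a value. Insig1 missed 1.5-fold with no mitochondrial limit, at -0.056 (-0.56 to 0.43), and in other settings, and Sc5d and Tm7sf2 had log2 ratios as near to 0 as -0.28 and -0.30.

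**Figure D5:**
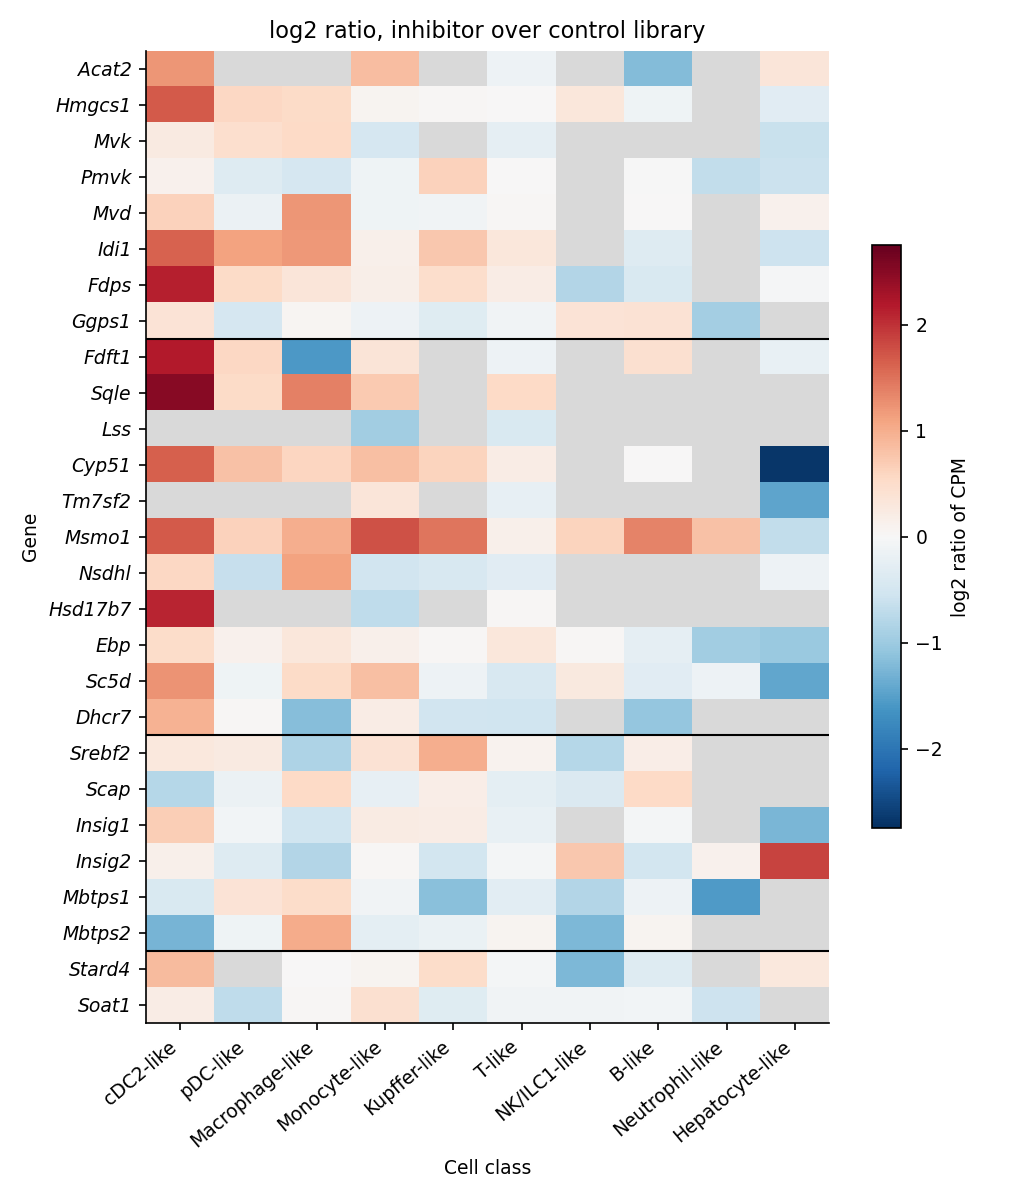
log2 ratio of CPM, inhibitor over control library (colour scale), for the 27 genes (rows, lines between roles) in the 10 compared cell classes (columns), grey where a gene had fewer than 20 UMIs over both libraries. The column of cDC2-like cells holds most of the dark red cells, Msmo1 forms the reddest row, and the hepatocyte-like column is mostly blue with Insig2 (1.86) as its dark red cell.

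Other lipid pathways were set beside the enzymes in cDC2-like cells, where 9.96% of all passing genes were higher and 10.5% lower. Of 10 genes of fatty acid synthesis under SREBP1, 9 passed, 1 was higher and 1 lower. The lower was Scd1, a fatty acid desaturase, at 1.89 and 10.6 CPM, and the higher Elovl6, an elongase, at 6.81 and 4.53 CPM. Of 8 genes of sterol sensing and degradation in the endoplasmic reticulum all passed, and 0 were higher and 0 lower. Ubxn4 stood at 101 and 78.6 CPM. Of 12 genes of sterol transport and efflux 11 passed, 2 (Nr1h3 and Tmem97) were higher and 3 lower. The lower ones were Abcg1, a sterol exporter, at 27.6 and 69.5 CPM, Mylip, which marks lipoprotein receptors for degradation, at 7.19 and 20.4 CPM, and Abca1, a cholesterol exporter, at 2.27 and 9.07 CPM. These 3 genes are known targets of the sterol-sensing LXR receptors.

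Abcg1 was also lower in other classes, at 36.8 and 127 CPM in monocyte-like cells, 16.0 and 44.4 CPM in pDC-like cells, 158 and 283 CPM in Kupffer-like cells, 57.3 and 120 CPM in neutrophil-like cells and 32.9 and 49.3 CPM in T-like cells. In monocyte-like cells 5 of 11 passing transport and efflux genes were lower and 1 higher, where 17.0% of genes were lower and 12.1% higher, with Abca1 at 6.90 and 25.8 CPM and Nr1h3, which codes for an LXR receptor, at 13.0 and 42.2 CPM. In macrophage-like cells Nr1h3 stood at 187 and 71.3 CPM, 2.63-fold higher. Scd2, a fatty acid desaturase, was lower in monocyte-like cells, at 10.0 and 24.2 CPM, in T-like cells, at 8.36 and 18.3 CPM, and in Kupffer-like cells, at 52.5 and 104 CPM. In hepatocyte-like cells 4 of 7 fatty acid synthesis genes were lower and 2 higher, where 15.8% of genes were lower and 36.9% higher, with Scd1 at 168 and 494 CPM.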

How the data were processed

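The deposited files hold raw UMI counts per gene and barcode, without normalization, and Cell Ranger 5.0.1 wrote them, per the file headers. The submitters' processing notes name Cell Ranger, Seurat 3, R 3.0 and the build mm9. Of the 31053 feature IDs, 31011 (99.9%) were in GENCODE M21, an annotation of GRCm38, so the build behind the counts is not settled. The kit is named as a 3′ kit in the labels' protocols, which also say that an Annexin V kit enriched live cells, with no word on the fraction sequenced.

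Barcodes with at least 300 genes, 500 UMIs and at most 25% mitochondrial UMIs were kept. Doublets were scored against simulated doublets (2 per cell, 50 neighbours) and 717 inhibitor (7.57%) and 374 control barcodes (5.47%) were removed. Cells were scaled to 10000 UMIs, log-transformed and clustered together from 2000 variable genes, without the 27 members, with 30 principal components, 20 neighbours and Leiden resolution 1 (leidenalg 0.10.2, scikit-learn 1.9.0, Python 3.11.15). A mixed dendritic cluster was split at resolution 0.3. This gave 34 clusters, 3 of them unnamed. Names needed 3 markers at 2-fold or more over the median cluster. The scoring of markers into names and the split were settled after clusters had been seen, while the marker lists were not changed. A cluster held mostly by 1 library may be that library and not a cell type.

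Within each class the UMIs of a library were summed, and ratios, intervals and floors (3 UMIs over the class) were computed with scipy 1.17.1. The ratios and intervals were run on counts simulated with counting error alone. Such counts cannot show how the intervals fare with differences between cells or mice, and the floors were not checked. Class sums were also scaled with edgeR 4.0.16 (TMM). In each class up to 8 members, those whose interval lay farthest from 0, were named, all 27 in the class with the most members past 1.5-fold, and up to 3 genes of each other list. The members and lists were chosen with earlier results of these data known. The added alternatives, and the line at 10 enzyme UMIs per 10000, were chosen after seeing the data.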

Additional observations from a re-analysis of the deposited data

Results flagged for a closer look

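In 6 of the 10 compared classes the interval of the summed enzyme ratio lay to 1 side of 0. The log2 ratio, inhibitor over control, was 1.11 in cDC2-like, 0.39 in macrophage-like, 0.30 in pDC-like and 0.26 in monocyte-like cells, and -0.42 in hepatocyte-like and -0.55 in neutrophil-like cells. Of these, the hepatocyte-like value was between 0.083 and 0.59 in 5 settings, the neutrophil-like value was -0.027 with no doublets removed and the macrophage-like value 0.093 at a resolution of 0.5. The difference between classes was not tested, since each class had 1 library per group and the classes of a library share its preparation.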

How the results depend on the processing

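No paired analysis was possible because each group holds 1 library. Of the summed log2 ratios those of B-like, NK-like or ILC1-like, monocyte-like and pDC-like cells stayed within their main intervals under every setting tried. In cDC2-like cells the 19 settings (14 planned and 5 added), where they applied, gave 0.73 to 1.26 and 9 to 15 members higher. The added settings, chosen after seeing the data, gave 0.75 and 9 higher members without cluster 32, 0.73 without clusters 32 and 33 (Mvd -0.030) and 1.26 without Ebp, and in T-like cells -0.083 without Ebp. In hepatocyte-like cells the sum was 0.45 with the members among the variable genes, 0.083 at resolution 0.5, 0.29 with the libraries clustered separately, 0.10 with no doublets removed, 0.59 with no mitochondrial limit, -0.80 with double the doublets removed and -0.63 with TMM scaling. In the same class Ebp was at 0.16 with no doublets removed and 0.36 with no mitochondrial limit, and Idi1 at 0.63, 0.18, 0.40 and 1.39 with the members among the variable genes, at resolution 0.5, with separate clustering and with no mitochondrial limit. The sum was 0.093 in macrophage-like cells at resolution 0.5, -0.25 in Kupffer-like cells with free RNA subtracted, and in neutrophil-like cells -1.08 with free RNA subtracted and -0.027 with no doublets removed. Soat1 in Kupffer-like cells was at 0.036 as a mean over cells. The cause of these shifts was not tested. TMM scaling moved all log2 ratios by -0.21 in hepatocyte-like, -0.14 in macrophage-like, 0.15 in Kupffer-like and 0.18 in neutrophil-like cells and by less than 0.1 elsewhere. Across settings the members higher numbered 1 to 15 in hepatocyte-like, 4 to 11 in macrophage-like, 1 to 7 in Kupffer-like, monocyte-like and pDC-like, 0 to 6 in neutrophil-like, 0 to 5 in NK-like or ILC1-like, 0 to 3 in B-like and 0 to 1 in T-like cells. These ranges, and that of cDC2-like cells, include settings that changed the UMI filter or the fold threshold of the call. The share over all genes was not computed under the changed settings, so these counts have no background beside them. Free RNA was not subtracted in hepatocyte-like cells, since it was scaled by genes of secreted hepatocyte proteins. Macrophage-like cells clustered separately and hepatocyte-like cells with at least 600 genes had under 50 cells in a library and were not compared. Members with few UMIs, such as Lss and Tm7sf2, could not be compared at this depth in most classes.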
